A study of Homo sapiens with 36 samples.

Results

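The human miRNAs whose name carries a number of 1000 or more after "hsa-miR-" were described across 7 aneuploid cell lines. They were chosen by name alone, and hsa-miR-1271-5p, hsa-miR-2277-5p and hsa-miR-3074-5p were left out by the rule. Of 509 miRNAs listed in at least 1 of the 7 tables, 217 met the rule, and the 292 others carry a lower number, a let-7 name or 1 of the 3 names left out.

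MiRNAs are short RNAs cut from hairpin precursors, and they bind partly complementary sites in messenger RNAs mainly through the seed, the bases near the 5′ end, which lowers translation or stability of the target. Human miRNAs are numbered roughly in the order in which they were annotated, so high numbers mostly belong to miRNAs that were found by deep sequencing and are present at low levels. Several of them lie on or resemble other abundant short RNAs, such as snoRNAs, spliceosomal snRNAs or tRNAs, and how many work as regulators is debated.

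Small RNA sequencing was done on 36 libraries in 12 groups of 3. HCT116 is a near-diploid colorectal carcinoma cell line, and RPE1 is a near-diploid retinal pigment epithelium line immortalized with hTERT. An asterisk marks stable expression of histone H2B tagged with GFP. Each table compares an aneuploid line with a control group of the same cell line, to ask which miRNAs change after a chromosome is gained.

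HCT116 5/4, which is tetrasomic for chromosome 5, was compared with HCT116. The lines trisomic for chromosome 18 (HCT116 18/3 c2), 3 (HCT116* 3/3 c11) and 8 (HCT116* 8/3 c7) were all compared with the same HCT116* libraries, so these 3 comparisons share their controls, and HCT116 18/3 c2 itself carries no H2B-GFP. RPE1 5/3 12/3, trisomic for chromosomes 5 and 12, was compared with RPE1. RPE1* 7/3, trisomic for chromosome 7, was compared with the RPE1* libraries numbered 11 to 13, and RPE1* 21/3, trisomic for chromosome 21, with the RPE1* libraries numbered 1 to 3. HCT116 5/4 came, with its HCT116 control, from another laboratory, the other lines were made by microcell transfer, lines named with a c number are single clones, and, by the study's methods, chromosome 12 in RPE1 5/3 12/3 and chromosomes 9 and 12 in RPE1* 7/3 were gained spontaneously. A difference between a line and its control can therefore belong to the clone as well as to the chromosome. In HCT116 18/3 c2 it can also belong to the H2B-GFP that only its control carries. The design cannot tell these apart.

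The tables hold, per miRNA, a mean of the normalized counts over the 6 libraries of the comparison, a log2 fold change with its standard error (SE) and p-values of DESeq2's Wald test, but no value of a single library. Where a level of a line or a control is given below, it was worked out from the mean and the fold change and has no spread of its own. By the study's methods the fits of RPE1* 21/3, HCT116 5/4 and the RPE1 line with extra chromosomes 5 and 12 already paired the replicates of line and control, to account for sequencing batches, and those of the other 4 lines did not. A miRNA was tested here when its mean was at least 10, and called when its listed adjusted p was under 0.05 and its log2 fold change at least 0.6 in size. Tables were normalized separately, so levels in different tables are compared only as parts per 1000000 of the summed level (ppm).

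Mature sequences are shown for the members whose fold changes or sequence the results turn on, with the seed (bases 2 to 8) in capitals. RefSeq's table (GRCh38.p14) held the exact name for 174 of the 217 members and for 242 of the 292 others. The first 3 sequences end alike, and miR-1260a and miR-1260b also share their seed.

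hsa-miR-1260a: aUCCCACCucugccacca
hsa-miR-1260b: aUCCCACCacugccaccau
hsa-miR-4454: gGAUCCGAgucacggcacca

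The next pairs share a seed within the pair, and most of their length besides, so that short reads cannot always be given to 1 of them.

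hsa-miR-1255a: aGGAUGAGcaaagaaaguagauu
hsa-miR-1255b-5p: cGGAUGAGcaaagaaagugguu
hsa-miR-1268a: cGGGCGUGgugguggggg
hsa-miR-1268b: cGGGCGUGguggugggggug

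The remaining sequences belong to members named in the results below and to miR-4458, which carries the let-7 seed.

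hsa-miR-4521: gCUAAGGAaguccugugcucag
hsa-miR-5091: aCGGAGACgacaagacugugcug
hsa-miR-3614-5p: cCACUUGGaucugaaggcugccc
hsa-miR-5701: uUAUUGUCacguucugauu
hsa-miR-1246: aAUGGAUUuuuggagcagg
hsa-miR-4458: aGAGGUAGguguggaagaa

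Seeds of the members were mostly their own. Of 174 members with a sequence, 18 shared a seed with any other listed miRNA, against 82 of 242 others. Only 4 members shared one with a listed miRNA outside the set (2.30%), while 80 of the others (33.1%) shared one with another of their kind. These 4 were miR-4458, with the seed of 8 listed let-7 family members including miR-98-5p, miR-4429, with the seed of miR-320b, miR-320c and miR-320d, miR-4466, with that of miR-675-5p, and miR-2682-5p, with that of miR-449c-5p. Short mature forms were more common: 17 of 174 members (9.77%) were under 20 bases against 6 of 242 others (2.48%), and the shortest, miR-1275, miR-4443, miR-4455 and miR-4497 at 17 bases, were under the 18 bases that the study's methods set as the shortest read kept. The letters CACCA within the last 6 bases occurred in 3 members, the trio miR-1260a, miR-1260b and miR-4454 above, and in 0 of the 242 others. CCA is also the end that is added to every mature tRNA, and tRNA loci were not searched here.

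Exact matches of the mature sequence were counted in GRCh37, the build the tables used (hg19). A single match was found for 140 of 174 members (80.5%) and for 199 of 242 others (82.2%), so the members were placed about as uniquely as the rest. The exceptions were large in both sets: among the members miR-5585-3p matched 676 places, miR-1268a 33 and miR-1255b-5p 23, and among the others miR-548ar-5p matched 584. More than 10 matches were found for 3 members (1.72%) and 7 others (2.89%). The mature sequences of 4 members lay in the same strand of another short RNA gene of the GENCODE annotation, against 1 of the others. miR-1246 had 7 matches and 6 of them were annotated U2 snRNA copies (RNU2-6P and RNU2-7P among them), miR-1248 lay in the snoRNA SNORA81, miR-1291 in the snoRNA SNORA34, and 1 of the 8 matches of miR-1973 in the mitochondrial rRNA MT-RNR2. Reads from these RNAs and from the miRNA cannot be told apart by sequence, and their share of the values was not tested.

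A locus in GRCh37 was found for 201 members. Of these, 112 (55.7%) had a locus in an intron of a host gene on the same strand without overlapping an exon, 36 (17.9%) overlapped an annotated exon and 56 (27.9%) lay in no host gene, a count that lets a miRNA with several loci enter more than once. Among 282 others the shares were 61.3%, 22.7% and 19.9%. The hairpin filled an intron to within 5 bases of both ends, the layout of a mirtron, in 4 members: miR-1224-5p in VWA5B2, miR-1226-5p in DHX30, miR-1228-5p in LRP1 and miR-3620-5p in ARF1. Of the others, 1 had this layout.

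By number of rows the members were a large set and by read count a very small one. They filled from 23.1% of the rows (63 of 273, RPE1* 21/3) to 42.4% (184 of 434, HCT116* 8/3 c7). Their share of the summed mean lay between 0.112% (RPE1 5/3 12/3) and 0.153% (HCT116* 8/3 c7). The median member had a mean of 9.34 in the HCT116 5/4 table against 116 for the other rows, and of 5.68 against 117 in that of RPE1* 7/3. A mean under 10 kept 36.5% to 66.9% of the members from being tested in 6 tables, against 9.05% to 21.2% of the others, while the HCT116* 3/3 c11 table listed no miRNA under a mean of 11.9.

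**Figure D1:**
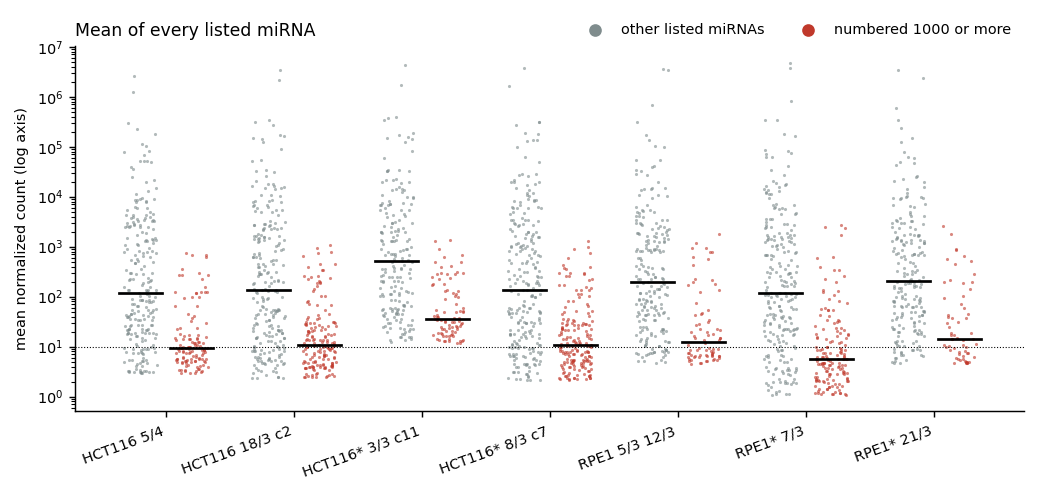
Mean normalized count of every listed miRNA in the 7 tables on a log axis, with miRNAs numbered 1000 or more in red, the others in grey, black bars at the medians and a dotted line at the mean of 10 used for testing. The red medians lie between 5.68 and 35.0 and the grey ones between 116 and 509, and the highest red point stands at 2742.

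The top 3 members of a table held from 25.6% (HCT116 18/3 c2) to 53.1% (RPE1* 7/3) of the members' summed mean. The most abundant member was miR-1260b or miR-1260a in 4 tables, with means from 1072 to 2742, miR-1255a in 2 (1348 in HCT116* 3/3 c11 and 1293 in HCT116* 8/3 c7) and miR-1246 in HCT116 5/4 (742). These leaders ranked between 46 and 84 among all rows of their table. Means of 1000 or more were reached by 0 to 4 members a table, against 72 to 79 others.

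The level separated the cell lines for some members. miR-1255a, which lies in an intron of PPP3CA (chromosome 4, 102251459 to 102251571, minus strand), was at 63.8, 117, 151 and 165 ppm in the tables of HCT116 5/4, HCT116 18/3 c2, HCT116* 3/3 c11 and HCT116* 8/3 c7. In the RPE1 tables it was at 0.506 and 0.255 ppm (RPE1 5/3 12/3 and RPE1* 7/3), and the RPE1* 21/3 table did not list it. The lowest HCT116 value was thus far above both RPE1 values. The reverse was seen for miR-2682-5p, whose locus on chromosome 1 (98510863 to 98510885, minus strand) lies in an exon of the lncRNA MIR137HG: it was at 84.9, 223 and 69.1 ppm in RPE1 5/3 12/3, RPE1* 7/3 and RPE1* 21/3, and no HCT116 table listed it. miR-4521 (chromosome 17, 8090266 to 8090287, plus strand, outside any host gene) was at 18.7 to 29.3 ppm in the HCT116 tables and 53.8 to 109 in the RPE1 tables, without overlap. The cell lines were not tested against each other, since no table compares them.

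Presence across tables was patchy. All 7 tables listed 38 of the 217 members (17.5%), against 167 of 292 others (57.2%), and a single table listed 33 members (15.2%) against 20 others (6.85%). HCT116 tables alone listed 57 members (26.3%) and RPE1 tables alone 24 (11.1%). Of the 292 others, HCT116 tables alone listed 41 and RPE1 tables alone 34. The share in RPE1 tables alone was thus about the same in both sets, and only the share in HCT116 tables alone was higher among the members. HCT116 has more tables than RPE1, which bears on these counts in both sets. At a mean of at least 10, 25 members could be tested in all 7 tables (11.5%) and 102 in none (47.0%), against 148 (50.7%) and 49 (16.8%) of the others. A miRNA missing from a table may have been filtered or not counted, and the tables do not say which.

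**Figure D2:**
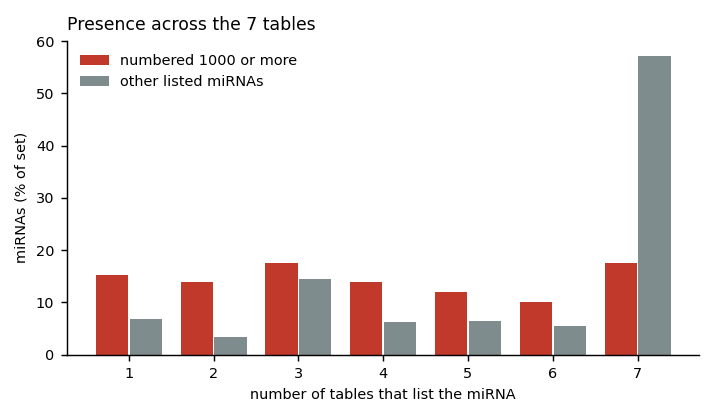
Share of miRNAs by the number of tables that list them, for the 217 miRNAs numbered 1000 or more (red) and the 292 others (grey), with the vertical axis starting at 0. The grey bar at 7 tables stands at 57.2% and the red bar at 17.5%, while the red bars for 1 to 6 tables lie between 10.1% and 17.5%.

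The fold changes of the members were less precise, and most of the gap was absent between miRNAs of similar mean. Among tested miRNAs the median SE of the members was 1.40 to 2.30 times that of the others, for example 0.408 against 0.207 in HCT116 5/4 and 0.286 against 0.124 in HCT116* 8/3 c7. At means of 10 to 100 the ratio within a table was 1.06 to 1.22, and at 100 to 1000 it was 0.992 to 1.14. Of the tested members whose log2 fold change reached 0.6 in size, 73 of 120 (60.8%) also passed the adjusted p, against 242 of 318 others (76.1%).

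The listed SEs also carried a limit of their own. In 4 tables they fell again below a mean of about 10. In these, 101 members (RPE1* 7/3), 21 (RPE1* 21/3), 89 (HCT116 18/3 c2) and 102 (HCT116* 8/3 c7) had an SE smaller than counting error alone would give for 3 against 3 libraries at that mean. Among tested members this held for 9 in HCT116 18/3 c2, 14 in HCT116* 8/3 c7 and 0 in the other 5 tables. Raising these SEs to the counting error kept all 73 calls.

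**Figure D3:**
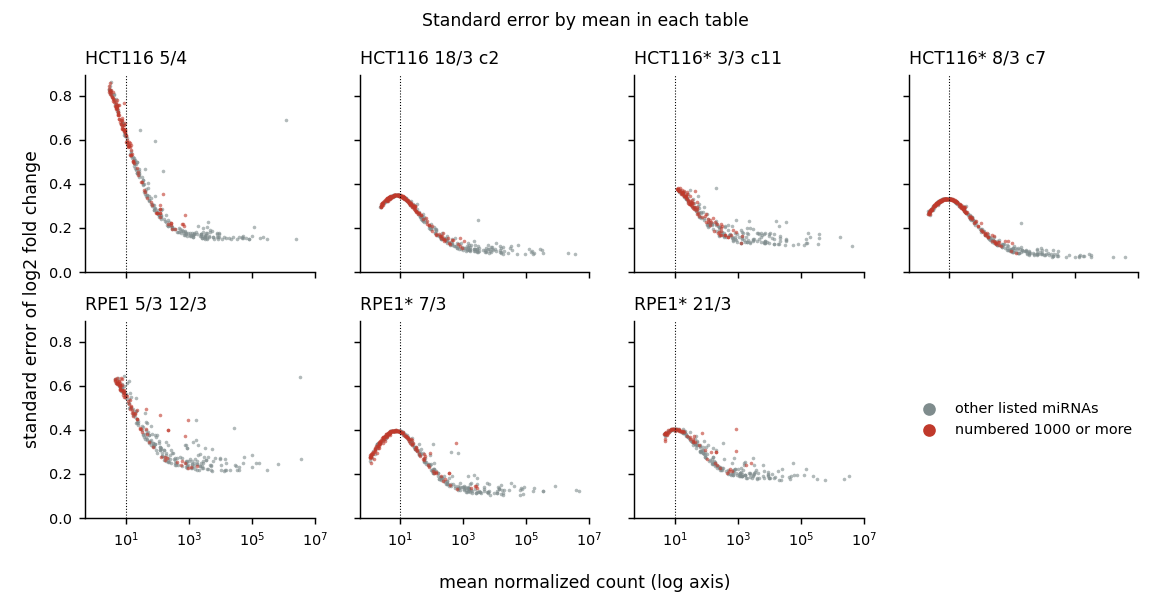
SE of the log2 fold change against the mean (log axis) in each table, members in red and other miRNAs in grey, with a dotted line at a mean of 10. Red and grey points follow the same falling curve, the red ones at its low-mean end, and in 4 tables the curve bends down again below a mean of about 10.

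Over the 7 lines 73 calls were made among the members, 47 higher and 26 lower in the aneuploid line, and they fell on 47 miRNAs. In HCT116 5/4, 9 of 52 tested members were called, where 27.7% of all tested miRNAs were; 4 were higher (18.5% of all) and 5 lower (9.24%). In HCT116 18/3 c2, 21 of 87 were called (18.2% of all), 13 higher (8.93%) and 8 lower (9.29%). HCT116* 3/3 c11 had 6 of 87 (9.68%), 4 higher (6.09%) and 2 lower (3.58%). HCT116* 8/3 c7 had 20 of 96 (15% of all), 16 higher (9.56%) and 4 lower (5.46%). For RPE1 5/3 12/3 the count was 11 of 41 (30.4% of all), with 8 members higher (16.9%) and 3 lower (13.5%). For RPE1* 7/3 it was 5 of 52 (13%), of which 2 were higher (7.29%) and 3 lower (5.67%). The single call among 40 members in RPE1* 21/3 (8.66% of all) was lower (4.76%), and 0 were higher (3.9%). The members' share was above that of all tested miRNAs in HCT116 18/3 c2 and HCT116* 8/3 c7 (24.1% and 20.8%) and below it in the other 5 lines, and these shares were not tested against each other.

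**Figure D4:**
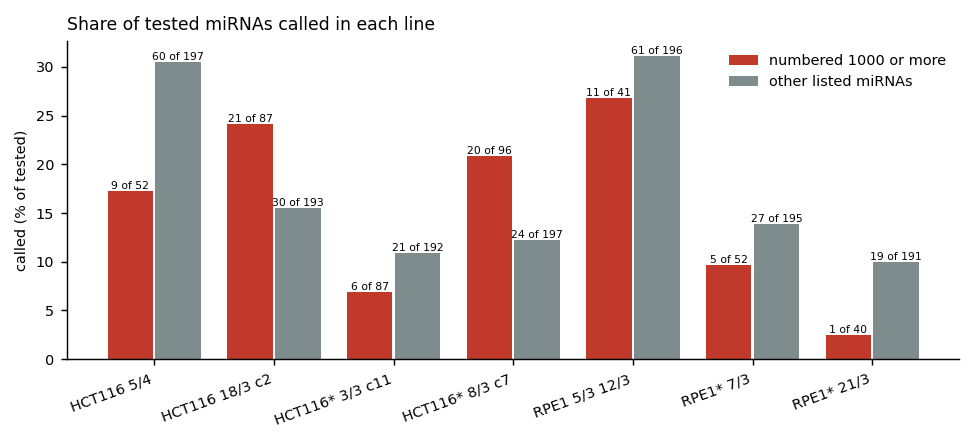
Percentage of tested miRNAs that were called in each line, members in red and other miRNAs in grey, with the counts above the bars and the axis starting at 0. The red bar is the taller one in HCT116 18/3 c2 (21 of 87 against 30 of 193) and HCT116* 8/3 c7 (20 of 96 against 24 of 197).

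Directions depended on the scaling in 3 lines. The deposited fold changes put the median of all tested miRNAs within 0.07 of 0 in every table. Scaling each group to its summed level instead, a total to which a few very abundant miRNAs contribute most, moved every log2 fold change by -0.65 in HCT116 5/4, -0.62 in RPE1 5/3 12/3, -0.28 in HCT116 18/3 c2, -0.13 in HCT116* 3/3 c11 and 0.12 in RPE1* 21/3, and by under 0.03 in the other tables. The calls of the members then split into 0 higher and 19 lower in HCT116 5/4, 1 and 16 in RPE1 5/3 12/3, and 6 and 19 in HCT116 18/3 c2. The share of all tested miRNAs called with this scaling is not given here, so these counts have no background beside them. The median of all tested miRNAs then lay at -0.62, -0.55 and -0.28 in these lines. The turn to lower thus held for the tested miRNAs as a whole and was not particular to the members. The fold changes given from here on are the deposited ones, relative to the median miRNA of the table.

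miR-4454 changed in more lines than any other member, and in both directions. Its sequence matched GRCh37 once, on the minus strand of chromosome 4 (164014759 to 164014778), in no annotated host gene. Its log2 fold change was -2.43 ± 0.35 (SE, 3 against 3 libraries) in HCT116 5/4 (DESeq2 adjusted p = 1.19e-10) and -1.80 ± 0.33 in RPE1* 21/3 (adjusted p = 3.02e-06). It was 1.62 ± 0.25 in HCT116 18/3 c2 (adjusted p = 1.51e-09) and 1.95 ± 0.38 in RPE1 5/3 12/3 (adjusted p = 8.13e-06). In HCT116* 3/3 c11, HCT116* 8/3 c7 and RPE1* 7/3 it was 0.41 ± 0.37, 0.32 ± 0.27 and -0.15 ± 0.39, and was not called. All 4 calls remained when the test was made against a log2 fold change of 0.6, and all 4 remained with the scaling to summed level.

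The control groups of the same cell line differed as much in miR-4454 as the lines did. Relative to the summed level of the group, it stood at 59.6 ppm in HCT116 against 4.06 to 4.55 in the HCT116* controls, and the aneuploid HCT116 lines lay between 4.99 and 11.6. Among the RPE1 controls it stood at 2.74 (RPE1), 11.2 (RPE1* 1 to 3) and 1.16 (RPE1* 11 to 13), and in the RPE1 lines at 6.89 (5/3 12/3), 3.49 (21/3) and 1.06 (7/3). The lines called lower were those whose control was highest for their cell line. The 13.9-fold gap between HCT116 and HCT116* was the highest of 49 members tested on both sides, whose median gap was 1.81-fold, against 1.74-fold for 187 others. HCT116 and HCT116* differ in H2B-GFP, in the laboratory source of the parental line by the study's methods, and in their libraries, which cannot be told apart. Both RPE1* control groups carry H2B-GFP.

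miR-1246, whose sequence occurs in the annotated U2 snRNA copies given above, had a similar gap between controls. It stood at 119 (RPE1), 129 (RPE1* 1 to 3) and 9.38 (RPE1* 11 to 13) ppm, a 13.8-fold range and the highest of 31 members over the RPE1 controls, where the median range was 2.46-fold against 2.06-fold for 180 others. Within tables it was called once, at 0.71 ± 0.15 in HCT116 18/3 c2 (adjusted p = 3.17e-05), and this call was lost at 0.44 with the scaling to summed level. The HCT116 controls differed too, at 188 ppm (HCT116) and 35.2 (HCT116*), and HCT116 18/3 c2 stood at 48.3. What this gap contributes to the call was not tested.

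miR-1260a, miR-1260b and miR-4286 were called in the same 3 lines with the same signs. miR-1260a (chromosome 14, 77732561 to 77732633) and miR-1260b (chromosome 11, 96074602 to 96074690) lie on the plus strand outside host genes. Since their mature forms differ in few bases, their counts may not be independent. miR-1260a was at 0.77 ± 0.15 in HCT116 18/3 c2, 0.96 ± 0.24 in RPE1 5/3 12/3 and -0.81 ± 0.14 in RPE1* 7/3. miR-1260b was at 0.85 ± 0.14, 0.89 ± 0.23 and -0.76 ± 0.14, and miR-4286 at 1.03 ± 0.15, 1.14 ± 0.25 and -0.97 ± 0.19. The adjusted p of these 9 calls ranged from 2.24e-10 (miR-4286 in HCT116 18/3 c2) to 0.00107 (miR-1260b in RPE1 5/3 12/3).

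The levels behind them were among the best counted of the set. In RPE1* 7/3 miR-1260b went from 3452 in the control to 2033 in the line, and miR-1260a from 3008 to 1711. In RPE1 5/3 12/3 miR-1260a went from 1212 to 2364, and in HCT116 18/3 c2 from 564 to 960. Relative to the summed level, the RPE1 and RPE1* (11 to 13) controls stood at 116 and 305 ppm for miR-1260b. The lines 5/3 12/3 and 7/3 stood at 140 and 183. For miR-1260a these controls stood at 168 and 265, and for miR-4286, the other way, at 37.6 and 22.9. Among the HCT116 controls miR-4286 stood at 67.5 ppm (HCT116) and 22.9 (HCT116*), miR-1260a at 133 and 77.9, and miR-1260b at 139 and 106. The part of these control gaps was not tested. In HCT116* 8/3 c7 both miR-1260 forms passed the adjusted p but stayed under the fold limit, at 0.57 ± 0.14 and 0.52 ± 0.13. With the scaling to summed level miR-1260a and miR-1260b lost the calls in HCT116 18/3 c2 (0.49 and 0.57) and RPE1 5/3 12/3 (0.35 and 0.28), miR-4286 lost that in RPE1 5/3 12/3 (0.53), and the 3 lower calls in RPE1* 7/3 held.

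**Figure D5:**
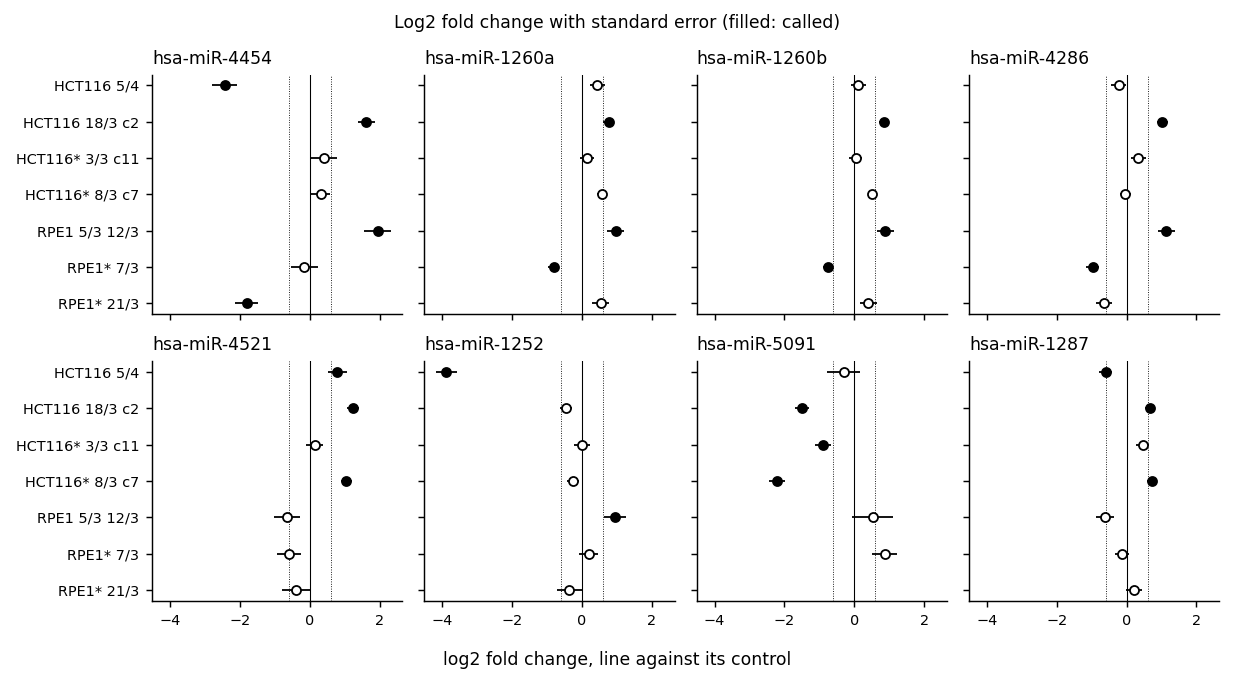
Log2 fold change of 8 members in the 7 lines, with bars of 1 SE and filled points for calls; solid and dotted lines mark 0 and 0.6 in either direction. miR-4454 has filled points on both sides of 0, miR-1260a, miR-1260b and miR-4286 share a pattern of 2 higher and 1 lower call, and miR-1252 lies at -3.88 in HCT116 5/4.

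miR-4521 was higher in 3 of the 4 HCT116 lines. It rose by 0.79 ± 0.27 in HCT116 5/4 (88.0 to 152, DESeq2 adjusted p = 0.0177), by 1.23 ± 0.18 in HCT116 18/3 c2 (139 to 327, adjusted p = 1.04e-10) and by 1.05 ± 0.17 in HCT116* 8/3 c7 (149 to 310, adjusted p = 5.03e-09). In HCT116* 3/3 c11 it was at 0.14 ± 0.24. In the RPE1 lines, where it was more abundant, the values were -0.65 ± 0.37, -0.60 ± 0.34 and -0.39 ± 0.40 (RPE1 5/3 12/3, RPE1* 7/3 and RPE1* 21/3), none of them called. With the scaling to summed level the value in HCT116 5/4 was 0.14 and no longer called.

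miR-1252, in an intron of the synaptotagmin gene SYT1 (chromosome 12, 79813037 to 79813101, plus strand), had the largest change among the called members. It went from 222 in HCT116 to 15.1 in HCT116 5/4, a log2 fold change of -3.88 ± 0.30 (DESeq2 adjusted p = 9.7e-36). In HCT116 18/3 c2 it was at -0.44 ± 0.17, past the adjusted p (0.0375) and short of the fold limit, and it was at -0.0007 ± 0.23 and -0.25 ± 0.16 in HCT116* 3/3 c11 and HCT116* 8/3 c7. In RPE1 5/3 12/3, which has an extra chromosome 12, it rose by 0.95 ± 0.32 (51.0 to 98.3, adjusted p = 0.0173), and by 0.33, without a call, with the scaling to summed level. In RPE1* 7/3, for which the study's methods also note an extra chromosome 12, it was at 0.19 ± 0.28.

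Other members fell in several HCT116 lines. miR-5091 (chromosome 4, 13629489 to 13629581, plus strand) was at -1.49 ± 0.21 in HCT116 18/3 c2, -0.90 ± 0.23 in HCT116* 3/3 c11 and -2.22 ± 0.22 in HCT116* 8/3 c7, and miR-5585-3p at -1.18 ± 0.33, -0.97 ± 0.34 and -1.31 ± 0.31. These 3 comparisons share their controls, so the repeat of the sign is not independent. The control level of miR-5091 worked out from the 3 tables was 150, 180 and 162, all from the same HCT116* libraries. Relative to the summed level of the group, miR-5091 stood at 5.84 ppm in HCT116 and 20.9 in HCT116*, and miR-5585-3p at 3.13 and 3.37. What the control gap of miR-5091 contributes to its calls was not tested. miR-1255a fell by 1.15 ± 0.19 on the log2 scale in HCT116 5/4 (489 to 220) and by 1.06 ± 0.11 in HCT116 18/3 c2 (1255 to 602), 2 comparisons with different controls.

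miR-1287, miR-1228-5p, miR-4661-5p and miR-4796-5p were called in both directions. miR-1287, over an exon of PYROXD2, was at -0.60 ± 0.20 in HCT116 5/4, 0.66 ± 0.14 in HCT116 18/3 c2 and 0.71 ± 0.13 in HCT116* 8/3 c7. Relative to the summed level of the group, its controls stood at 84.3 ppm (HCT116) and 28.2 (HCT116*), and these lines at 35.3, 36.7 and 45.8. The mirtron-like miR-1228-5p was at 0.75 ± 0.27 in HCT116 18/3 c2, 1.11 ± 0.25 in HCT116* 8/3 c7 and -1.79 ± 0.47 in RPE1 5/3 12/3, with means between 19.7 and 46.3. miR-4661-5p was at 0.89 ± 0.27 in HCT116 5/4 and -0.70 ± 0.16 in HCT116 18/3 c2, with controls at 16.3 ppm (HCT116) and 36.5 (HCT116*). The part of these control gaps in the opposite calls of miR-1287 and miR-4661-5p was not tested. miR-4796-5p was at -0.63 ± 0.24 in HCT116 18/3 c2 and 1.02 ± 0.18 in HCT116* 8/3 c7, which share controls, so no difference was tested. With the scaling to summed level miR-4661-5p was no longer called in HCT116 5/4 (0.24) and thus in 1 direction only, and miR-1287 (0.38) and miR-1228-5p (0.47) lost their calls in HCT116 18/3 c2.

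Several members with a mean of at least 100 were called in 1 line each. In HCT116* 8/3 c7 miR-3614-5p, whose hairpin overlaps an exon of TRIM25, was at 1.45 ± 0.18 (84.0 to 230), miR-2110 at 0.67 ± 0.18, and miR-1268a and miR-1268b, which share nearly all their bases, at -0.76 ± 0.14 and -0.74 ± 0.14. In HCT116* 3/3 c11 miR-1296 was at 1.23 ± 0.21 (187 to 439). In HCT116 18/3 c2 miR-1277-5p was at 0.68 ± 0.19, miR-1304-5p at 0.64 ± 0.17 and miR-4326, in an intron of ARFGAP1, at -0.71 ± 0.12. In RPE1 5/3 12/3 miR-5701, annotated at 2 places of chromosome 15, was at 0.86 ± 0.26 (437 to 794). The call of miR-5701 was lost with the scaling to summed level (0.25), as were those of miR-1277-5p (0.41) and miR-1304-5p (0.37).

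Few members could be tested on a gained chromosome, and the chromosomes that RPE1* 7/3 gained spontaneously were not counted. Counting members with loci on a single chromosome, 14 could be tested on the chromosome named in the line's label, 11 of them with a value above 0; 5 were called higher and 1 lower. Of 56 others on these chromosomes 37 were above 0, 18 were called higher and 2 lower. In HCT116* 8/3 c7 the calls were miR-4660 at 1.53 ± 0.29 and miR-3148 at 0.90 ± 0.23, while miR-4286 and miR-4661-5p on the same chromosome were at -0.04 ± 0.16 and 0.00 ± 0.14. In HCT116 18/3 c2 miR-3929 (chromosome 18, 33514051 to 33514105, minus strand) was at 1.62 ± 0.30, the only member tested there. In RPE1 5/3 12/3 miR-3913-5p was at 1.51 ± 0.40 and miR-1252 as given above, miR-1291 was at -0.13 ± 0.49 and miR-1228-5p was called lower. With the scaling to summed level miR-3913-5p (0.90) and miR-1252 were no longer called, which left 3 members called higher on a gained chromosome. In HCT116* 3/3 c11 all 4 members tested on chromosome 3 were above 0, from 0.03 to 0.52, and none was called (the lowest, miR-4791, was at -0.10 with the scaling to summed level). miR-3148 was also called higher in RPE1* 7/3, at 0.94 ± 0.31. Of the members with loci on a single chromosome, none on chromosome 5 in HCT116 5/4, 7 in RPE1* 7/3 or 21 in RPE1* 21/3 reached a mean of 10. miR-1285-5p, annotated on chromosomes 2 and 7 and so not counted here, was called higher in RPE1* 7/3, at 1.15 ± 0.38.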

How the data were processed

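Total RNA with small RNAs was sequenced by the authors from TruSeq small RNA libraries of the 2 cell lines and their derivatives. Per the labels and the study's methods, reads were trimmed with cutadapt, mapped to hg19 and counted per miRBase miRNA with miRDeep2, discarding reads under 18 bases, which bears on the shortest members, and compared with DESeq2. The authors deposited 1 table per line with 6 columns: the mean normalized count (a signal, pooled over the 6 libraries), the log2 fold change and its SE (log2), the Wald score, the p-value and the adjusted p-value. The methods give a nominal read number, but the depth each library reached is not in the tables, and the summed mean per table was 5556870 to 11221232. Listed scores and p-values were recomputed from fold change and SE and differed nowhere beyond rounding.

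The members and lists were chosen with earlier results of these data known. The fold changes, SEs and p-values are the deposited ones, since no single-library values were analysed here, and replicates cannot be compared. The study's methods call the 3 libraries of a group biological replicates of 1 line, so the p-values measure the spread within that line. The rule named the 4 members miR-4454, miR-4286, miR-4521 and miR-1252, members called at a mean of at least 100, in at least 3 lines or on a gained chromosome, and the 6 with the highest median mean, 28 in all. Control and line levels were worked out as the pair of values with the listed mean and fold change, which is approximate where the fold change was shrunken or fitted with paired replicates. Differences between lines without shared controls were tested two-sided as the difference of fold changes over the root of the summed squared SEs, Benjamini-Hochberg adjusted over 3682 tests. Loci came from GENCODE on GRCh37 by symbol or a single exact match. Computations used Python 3.11.15, pandas 2.3.3 and scipy 1.17.1 and were tested on simulated data.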

Additional observations from a re-analysis of the deposited data

Results flagged for a closer look

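Among the members, 8 miRNAs were called in opposite directions in lines that share no controls, in 16 pairs of lines, and in all 16 the difference of the log2 fold changes passed the adjusted test (1075 of all 3682 tests over 18 pairs of lines did). Values are given as the log2 fold change in the line named before "minus" less that in the line after it, with the SE of the difference. Since these members were called in both lines with opposite signs, the differences had to be large. Counting lines with shared controls too, 9 of 217 members (4.15%) were called in both directions, against 30 of 292 others (10.3%). Called in at least 1 line were 47 members and 139 others.

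For miR-4454 the difference was 3.43 ± 0.41 for HCT116 18/3 c2 minus RPE1* 21/3, -4.05 ± 0.43 for HCT116 5/4 minus HCT116 18/3 c2, -4.38 ± 0.52 for HCT116 5/4 minus RPE1 5/3 12/3 and 3.75 ± 0.51 for RPE1 5/3 12/3 minus RPE1* 21/3. The gap between control groups of 1 cell line described for miR-4454 touches all of these, and its part was not tested.

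For miR-1252 it was -4.83 ± 0.44 for HCT116 5/4 minus RPE1 5/3 12/3, the largest of the 16, at an adjusted p of 6.2e-26 by the normal test. Against RPE1* 7/3, miR-1260a differed by 1.58 ± 0.21 in HCT116 18/3 c2 and 1.78 ± 0.28 in RPE1 5/3 12/3, miR-1260b by 1.61 ± 0.20 and 1.66 ± 0.27, and miR-4286 by 1.99 ± 0.24 and 2.11 ± 0.32.

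miR-1228-5p differed from RPE1 5/3 12/3 by 2.54 ± 0.55 in HCT116 18/3 c2 and 2.90 ± 0.54 in HCT116* 8/3 c7. miR-1287 in HCT116 5/4 differed by -1.26 ± 0.24 from HCT116 18/3 c2 and by -1.32 ± 0.24 from HCT116* 8/3 c7, and miR-4661-5p by 1.60 ± 0.31 for HCT116 5/4 minus HCT116 18/3 c2. The gaps between HCT116 and HCT116* given for miR-1287 and miR-4661-5p touch these differences, and their part was not tested. The least certain of the 16 was miR-1228-5p in HCT116 18/3 c2, at an adjusted p of 3.8e-05. All 16 differences kept their sign and stayed past the threshold with SEs raised to counting error and with the scaling to summed level.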

How the results depend on the processing

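Testing against a log2 fold change of 0.6 left 3 of 9 member calls in HCT116 5/4, 5 of 21 in HCT116 18/3 c2, 5 of 20 in HCT116* 8/3 c7, 1 of 6 in HCT116* 3/3 c11, 1 of 11 in RPE1 5/3 12/3 and 0 of 5 in RPE1* 7/3. A fold limit of 1 left 1 in RPE1* 7/3, 7 in RPE1 5/3 12/3, 10 in HCT116* 8/3 c7, 10 in HCT116 18/3 c2 and 5 in HCT116 5/4. A mean of at least 100 left 0 in RPE1* 21/3, 3 in RPE1* 7/3, 4 in RPE1 5/3 12/3, 7 in HCT116* 8/3 c7, 2 in HCT116* 3/3 c11 and 12 in HCT116 18/3 c2. Adjusting over miRNAs with a mean of at least 10 gave 2 in RPE1* 21/3. The scaling to summed level, chosen after seeing the data, gave 19 in HCT116 5/4 and 17 in RPE1 5/3 12/3, without a share over all tested miRNAs beside them. There it also moved the median of all tested miRNAs, to -0.62 and -0.55. Of the 51 calls of named members, 13 remained against 0.6, 23 at a fold limit of 1, 34 at a mean of 100 and 36 with the scaling to summed level, and none turned its sign.

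Without the most abundant member the share of the summed mean was 0.0920% (RPE1 5/3 12/3), 0.0981% (RPE1* 21/3), 0.103% (RPE1* 7/3), 0.107% (HCT116 5/4), 0.121% (HCT116* 3/3 c11), 0.123% (HCT116 18/3 c2) and 0.136% (HCT116* 8/3 c7). Including the 3 names left out by the rule moved no share by more than the spread between tables. The SE ratio of members to others was also taken without the 4 tables with many SEs under counting error. At means of 1000 or more its median over tables was then 0.966 in place of 1.19, with 4 members there. Pooled over tables, the ratio of the median SEs moved the other way, from 0.958 to 1.15, so no direction can be drawn from it. At lower means the ratio moved by less than the spread between tables.

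No paired analysis was possible because the tables hold no single-library values, beyond the pairing that the deposited fits of 3 lines already had, and leaving out replicates was not run. Of the members, 102 had no mean of 10 in any table.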

Other observations

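Several members with means under 100, chosen here after their values were seen, had some of the larger changes. miR-4431, listed in HCT116 tables alone, was at 1.92 ± 0.23 in HCT116* 8/3 c7 (mean 72.1), and miR-3617-5p at 1.77 ± 0.32 in HCT116* 3/3 c11 (mean 50.0). miR-4466, with the seed of miR-675-5p, was called higher in HCT116* 8/3 c7 (1.67 ± 0.30) and HCT116* 3/3 c11 (1.09 ± 0.36), and miR-4488 in HCT116* 8/3 c7 (1.49 ± 0.33) and HCT116 18/3 c2 (1.40 ± 0.35), comparisons that share controls. miR-3691-5p was at -1.34 ± 0.27 in HCT116 18/3 c2, miR-1293 at 1.77 ± 0.59 in HCT116 5/4 and miR-3065-5p at -1.48 ± 0.54 in RPE1 5/3 12/3, the last 2 at means of 14.01 and 13.4. The call of miR-1293 was lost with the scaling to summed level (1.11).

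The mature sequences of the members were richer in G and C, with a median of 53.6% over 174 sequences against 47.6% over 242 others, and they spanned 12.5% to 94.4% against 27.3% to 78.3%.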
